A study of Mus musculus with 2 samples.

Results

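The proteasome genes were taken as all genes whose only symbol in the platform annotation begins with Psm, a letter from a to g and a digit, without the immunoproteasome genes Psmb8, Psmb9 and Psmb10. This rule found 46 genes among 18194 named on the array, and 44 of the 46 were measured, that is, had a signal above the floor of 103.9 intensity units on at least 1 array. The probe sets chosen for these 44 all lay above the floor on both arrays, so the floor limits none of the members' chosen ratios. It does limit a few ratios of dimmer probe sets and of marker genes. Of the 46, 44 encode proteasome subunits, activators, an inhibitor or assembly factors. Psmc3ip, a meiotic recombination factor, and Psme3ip1, a binding partner of the activator PA28γ, match the symbol rule only. They are counted with the members but placed in no subcomplex.

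The 2 groups were lens of P60 and lens of P7 mice (postnatal days 60 and 7), wild type and of strain C57/BL6. Each group was 1 pool of lenses hybridised to 1 array, so no value has a replicate, no test between the ages is possible, and differences are given by size. How many animals a pool held, and their sex, the sources used here do not give. In pooled tissue, fewer cells of a type and less RNA per cell cannot be told apart.

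The proteasome is the main protease of the cytosol and nucleus and degrades proteins marked with ubiquitin. Its core particle is a barrel of outer α rings, which gate the entrance, and inner β rings, which hold the catalytic sites. A regulatory particle caps the barrel: its base contains a ring of ATPases that unfold substrates, and its lid removes ubiquitin. Other caps, the PA28 complexes and PA200, open the barrel without that ATPase ring, and dedicated chaperones assemble core and base. The lens keeps its fibre proteins for life and loses the organelles of its inner fibre cells, and ubiquitin-dependent proteolysis is known to be active in its epithelium and young fibres.

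The proteasome genes were mostly lower in P60 lens. Of 44 measured members, 38 (86.4%) had a log2 ratio of P60 over P7 below 0, as against 48.8% of all 13029 measured genes. At least 2-fold lower in P60 lens were 10 of 44 (22.7%), where 9.44% of all measured genes were, and at least 2-fold higher was 1 of 44 (2.27%), where 11.5% of all genes were. The count of lower members depended on the probe set: it was 6 of 44 (13.6%, beside 10.4% of all genes) on the dimmest measured probe set of each gene and 5 of 38 (13.2%, beside 9.44%) on probe sets without a letter suffix. At 2-fold these shares are near those of all genes, whereas log2 ratios below 0 were found for 36 of 44 and 33 of 38 members in these settings, beside 54.6% and 49.6% of all genes. At 1.5-fold, 22 of 44 (50%) were lower and 2 (4.55%) higher, beside 20.1% and 22.7% of all genes. The median log2 ratio was -0.57 over the members and 0.02 over all measured genes. The members' median intensity was 4301 in P60 lens and 6267 in P7 lens.

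As a guide to how far probe sets disagree, the log2 ratios of different probe sets of the same gene had a pooled SD of 0.58 over 4239 genes. All probe sets share the same pools and arrays, so this SD holds no variation between pools or arrays. The same SD was 0.42 over 18 members, those for which at least 2 probe sets exceeded the floor at both ages. Of the 44 members, 22 lay below 0 by more than 0.58 and 20 lay within 0.58 of 0 on either side. The 2-fold limit cuts a continuous range: Psmd6 was just past it with a log2 ratio of -1.01, and Psmd9 (-0.98) and Psmd10 (-0.92) were just short of it.

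**Figure D1:**
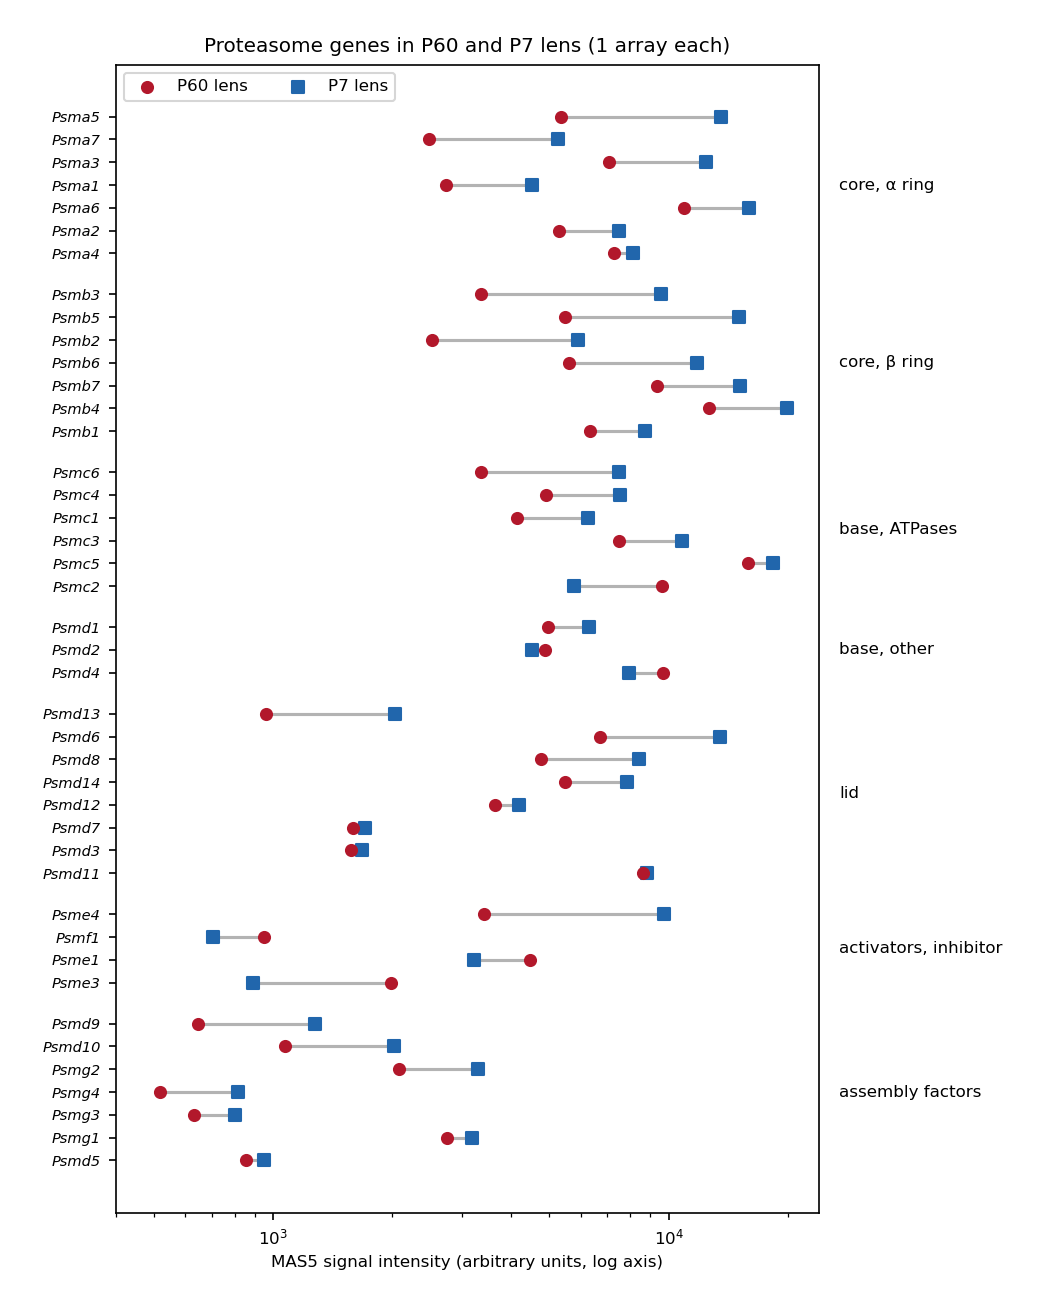
Signal intensity (log axis) of the 42 measured proteasome proteins' genes in P60 lens (red circles) and P7 lens (blue squares), 1 array each, grouped by subcomplex and ordered within it by ratio. The red circle lies left of the blue square for all 14 core genes, and right of it for 6 genes, namely Psmc2, Psmd2, Psmd4, Psmf1, Psme1 and Psme3.

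All 7 measured α subunit genes had lower signals in P60 lens, 2 of them at least 2-fold, with a median log2 ratio of -0.73. Psma5 (subunit α5) read 5337 in P60 lens and 13545 in P7 lens, which is 2.54-fold lower. Its other measured probe set gave nearly the same ratio, so both probe sets of Psma5 ranged only from -1.34 to -1.33. Psma7 (α4) read 2473 in P60 lens and 5253 in P7 lens, 2.12-fold lower, and a log2 ratio of -0.91 came from its other probe set. Psma3 (α7) read 7079 in P60 lens and 12452 in P7 lens, a log2 ratio of -0.81, and Psma1 (α6) 2732 in P60 lens and 4524 in P7 lens, a log2 ratio of -0.73. For Psma3 a second, dim probe set, under the floor in P7 lens, pointed the other way with 0.21. Psma6 (α1) had 10949.9 in P60 lens and 16008 in P7 lens, and its 3 probe sets ran from -0.94 to -0.34. Psma2 (α2) stood at 5293 in P60 lens and 7498 in P7 lens, a log2 ratio of -0.50. Psma4 (α3), whose N-terminus takes part in closing the gate, was nearest to 0 of the ring, at 7293 in P60 lens and 8119 in P7 lens (log2 ratio -0.15). Psma8, the form of α4 found in testis, was under the floor at both ages (6.44 in P60 lens and 72.3 in P7 lens).

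The β subunit genes had the lowest median of the subcomplexes, a log2 ratio of -1.08, with all 7 measured genes below 0 and 4 at least 2-fold lower in P60 lens. Psmb5, which encodes the chymotrypsin-like catalytic subunit β5, read 5468 in P60 lens and 15109.9 in P7 lens, 2.76-fold lower. Psmb6, encoding the caspase-like subunit β1, read 5588 in P60 lens and 11807 in P7 lens, 2.11-fold lower. Psmb7, encoding the trypsin-like subunit β2, read 9323 in P60 lens and 15185 in P7 lens, a log2 ratio of -0.70. All 3 catalytic subunits of the constitutive core were thus lower in P60 lens, and each was read by 1 probe set. Among the inner ring subunits without catalytic activity, Psmb3 (β3) read 3357 in P60 lens and 9576 in P7 lens, 2.85-fold lower. Its other probe set gave a smaller difference, with a log2 ratio of -0.67. Psmb2 (β4) read 2516 in P60 lens and 5895 in P7 lens, 2.34-fold lower. Psmb4 (β7) read 12684 in P60 lens and 19908 in P7 lens, with both probe sets between -0.65 and -0.55. Psmb1 (β6) had a log2 ratio of -0.46 (6317 in P60 lens and 8714 in P7 lens), and its 3 measured probe sets ran from -0.62 to 0.59. Psmb11, the thymus form of β5, was also under the floor at both ages (39.6 in P60 lens and 71.5 in P7 lens).

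The core genes are bright, with geometric means of both ages between 3516 and 15891. Among the 1128 genes of the array in that range, 8.24% were at least 2-fold lower and 9.13% at least 2-fold higher in P60 lens, 21.3% at least 1.5-fold lower, and 49.9% had a log2 ratio below 0. Over the 14 measured core genes the counts were 6 at least 2-fold lower (42.9%), 10 at least 1.5-fold lower (71.4%) and 14 below 0. None of the 14 was at least 1.5-fold higher. Across the 44 members the log2 ratio had a Pearson correlation of -0.16 with the mean log2 intensity, a description over genes that share both arrays.

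**Figure D2:**
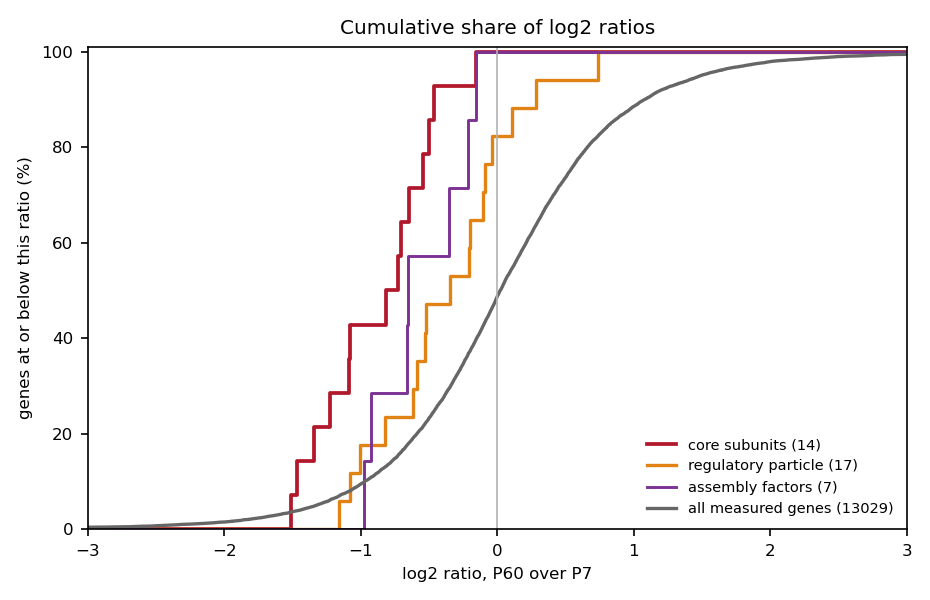
Share of genes (%) at or below each log2 ratio of P60 over P7, for 14 core genes, 17 genes of the regulatory particle, 7 assembly factor genes and all 13029 measured genes. The core line reaches 100% before 0, whereas the line of all genes stands at 48.8% there.

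Because many proteasome genes were lower together, their promoters were read for the antioxidant response element, the site through which the transcription factor NRF1, encoded by Nfe2l1, is known, in mouse and human cells, to raise proteasome genes when proteasome activity is short. Promoter windows, from 250 bases before to 50 bases after the annotated start, were taken from RefSeq on build GRCm38.p6 and were present for 38 of the 46 members. The letters TGACNNNGC, on either strand, occurred in 6 of these 38 genes (15.8%), close to the 14.0% of all 27025 genes with a window. The 6 genes were Psmb5, Psmb6, Psmc6, Psmd9, Psmd12 and Psme4, and 4 of them were at least 2-fold lower in P60 lens. On the dimmest measured probe set only Psmb5 and Psmb6 were, 2 of the 6. Each of these 2 has only 1 probe set, so its value could not change. Of all 1765 measured genes with these letters, 10.1% were at least 2-fold lower, beside 9.23% of the 8713 without them. The median log2 ratio of the 6 members was -1.12 on the chosen probe sets, beside -0.52 for the 31 measured members with a window and without these letters, of which 5 were at least 2-fold lower. On the dimmest measured probe sets the median of the 6 was -0.37, beside -0.39 over all 44 members, so the lower median depends on the probe set. The letters CCAAT, the core of the CCAAT box, occurred on either strand in 15 of the 38 genes (39.5%), beside 41.1% of all genes. A match in such a window describes the letters and does not show that a factor binds. The windows of the 4 genes that hold TGACNNNGC and were at least 2-fold lower are given 5′ to 3′ along the gene, with the matched bases in capitals:
Psmb5 (chr14:54617946-54618245, minus strand): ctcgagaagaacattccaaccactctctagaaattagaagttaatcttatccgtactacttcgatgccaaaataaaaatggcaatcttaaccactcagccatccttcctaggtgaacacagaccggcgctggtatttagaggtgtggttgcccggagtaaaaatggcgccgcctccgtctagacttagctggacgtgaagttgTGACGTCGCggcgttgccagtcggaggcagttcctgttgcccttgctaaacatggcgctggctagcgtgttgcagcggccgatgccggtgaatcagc
Psmb6 (chr11:70525107-70525406, plus strand): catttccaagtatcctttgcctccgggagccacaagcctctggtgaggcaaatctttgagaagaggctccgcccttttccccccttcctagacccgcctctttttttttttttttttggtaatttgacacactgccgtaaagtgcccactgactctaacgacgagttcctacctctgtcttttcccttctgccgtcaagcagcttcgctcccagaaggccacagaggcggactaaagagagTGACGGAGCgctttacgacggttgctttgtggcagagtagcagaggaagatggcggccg
Psmc6 (chr14:45329574-45329873, plus strand): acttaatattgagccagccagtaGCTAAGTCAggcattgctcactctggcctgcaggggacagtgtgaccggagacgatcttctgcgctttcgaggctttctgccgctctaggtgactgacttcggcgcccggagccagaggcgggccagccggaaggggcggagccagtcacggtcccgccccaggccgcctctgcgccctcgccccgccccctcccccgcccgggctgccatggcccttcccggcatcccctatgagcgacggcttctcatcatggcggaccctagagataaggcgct
Psme4 (chr11:30771525-30771824, plus strand): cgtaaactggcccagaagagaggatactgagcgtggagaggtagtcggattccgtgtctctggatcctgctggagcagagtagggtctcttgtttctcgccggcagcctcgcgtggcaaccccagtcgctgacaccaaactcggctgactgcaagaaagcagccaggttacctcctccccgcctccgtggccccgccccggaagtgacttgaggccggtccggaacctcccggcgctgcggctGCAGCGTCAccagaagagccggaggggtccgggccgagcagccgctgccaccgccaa
Counting the start base as 0, the match in Psmb5 began at -47, that in Psmb6 at -9 and that in Psme4 at -7, all next to the start. The match in Psmc6 began at -227. In Psmc6 and Psme4 the letters lie on the opposite strand, so the capitals show their reverse complement.

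In the base of the regulatory particle, 5 of 6 ATPase genes had lower signals in P60 lens, 1 of them at least 2-fold, with a median log2 ratio of -0.56. Of all measured genes, 48.8% had a log2 ratio below 0 and 9.44% were at least 2-fold lower, so 1 of 6 is not set apart from that share. Psmc6 (Rpt4) read 3353 in P60 lens and 7498 in P7 lens, 2.24-fold lower, and its dimmer probe sets were nearer to 0, the nearest at -0.27. Psmc4 (Rpt3) read 4908 in P60 lens and 7541 in P7 lens, with its other probe set further down at -1.16. Psmc1 (Rpt2) and Psmc3 (Rpt5), whose C-termini dock into the α ring, had log2 ratios of -0.59 (4140 in P60 lens, 6239 in P7 lens) and -0.53 (7493 in P60 lens, 10810.2 in P7 lens). Psmc5 (Rpt6) was nearest to 0, at 15863 in P60 lens and 18347 in P7 lens (log2 ratio -0.21). Psmc2 (Rpt1) was the exception on its chosen probe set, at 9621 in P60 lens and 5778 in P7 lens, a log2 ratio of 0.74. The other measured probe set of Psmc2 pointed the other way with -0.43, so the direction of this gene depends on the probe set.

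The base genes that are not ATPases had log2 ratios from -0.34 to 0.28, and 1 of 3 lay below 0. Psmd4, which encodes the ubiquitin receptor Rpn10, read 9684 in P60 lens and 7964 in P7 lens, and its 2 measured probe sets had log2 ratios of 0.28 and 0.27. Psmd2, encoding the scaffold and ubiquitin receptor Rpn1, read 4880 in P60 lens and 4528 in P7 lens (log2 ratio 0.11). Psmd1, encoding the scaffold Rpn2, read 4962 in P60 lens and 6294 in P7 lens (log2 ratio -0.34). All 3 lie within the SD of 0.58 between probe sets.

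All 8 lid genes had log2 ratios below 0, but over a wide range, with a median of -0.36 and 2 at least 2-fold lower. Psmd13 (Rpn9) read 958 in P60 lens and 2030 in P7 lens, 2.12-fold lower, with its 3 measured probe sets from -1.08 to -0.14. Psmd6 (Rpn7) read 6706 in P60 lens and 13493 in P7 lens, 2.01-fold lower, and its other probe set gave a log2 ratio of -0.91. Psmd8 (Rpn12) had a log2 ratio of -0.82 (4771 in P60 lens and 8433 in P7 lens). Psmd14, which encodes Rpn11, the enzyme that cuts ubiquitin chains off substrates, read 5484 in P60 lens and 7861 in P7 lens, a log2 ratio of -0.52. The remaining lid genes, all structural subunits, lay closer to 0. Psmd12 (Rpn5) read 3634 in P60 lens and 4179 in P7 lens (log2 ratio -0.20). Psmd7 (Rpn8), the partner of Rpn11, read 1589.6 in P60 lens and 1712 in P7 lens (log2 ratio -0.11), and Psmd3 (Rpn3) 1577 in P60 lens and 1683 in P7 lens (log2 ratio -0.09). Psmd11 (Rpn6) had a log2 ratio of -0.04 on its brightest probe set (8593 in P60 lens and 8828 in P7 lens), and its 6 measured probe sets ran from -0.25 to 0.62. Over the whole regulatory particle, 14 of 17 genes (82.4%) lay below 0, beside 48.8% of all measured genes. Of the 17, 3 were at least 2-fold lower, beside 9.44% of all measured genes, a count too small to set apart from that share. The median was -0.34 over the regulatory particle, beside -0.77 over the 14 core genes.

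**Figure D3:**
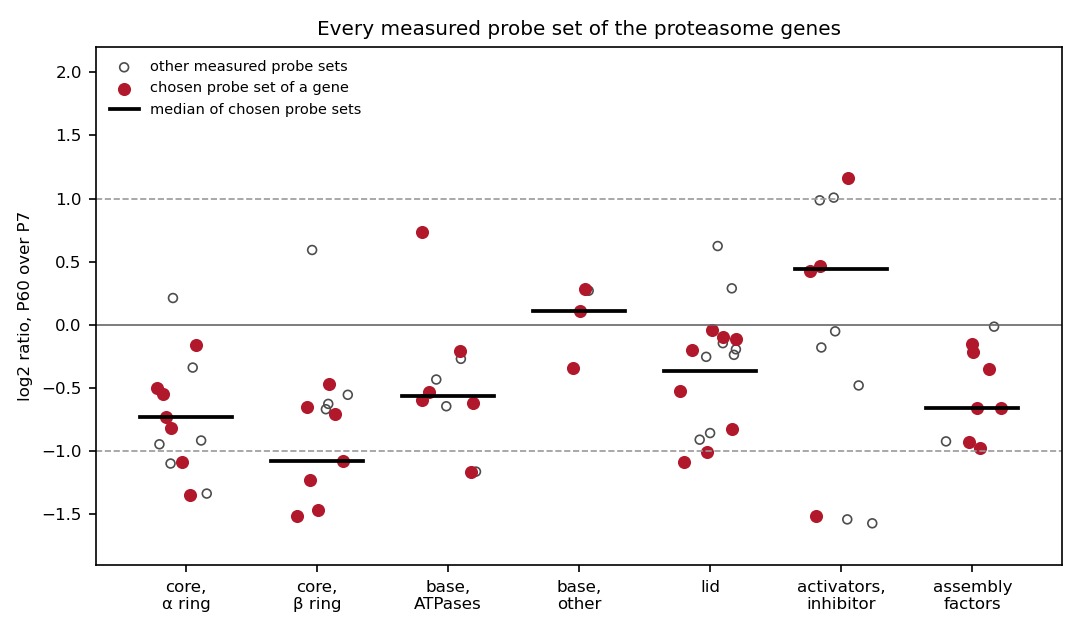
Log2 ratio of P60 over P7 for every measured probe set, by subcomplex: filled red points are the probe set used for a gene, open points its other measured probe sets, bars the medians of the filled points, and dashed lines 2-fold. The filled points of the α ring, the β ring, the lid and the assembly factors all lie below 0, while activators and inhibitor run from -1.51 to 1.16.

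The alternative caps of the core went in opposite directions. Psme4, encoding the nuclear activator PA200, which is linked to histone degradation, read 3409 in P60 lens and 9741 in P7 lens. It was 2.86-fold lower, the member furthest down, and its 3 brightest probe sets lay between -1.57 and -1.51. The remaining measured probe set, above the floor in P7 lens only, had -0.48. Psme3, encoding the nuclear activator PA28γ, was the only member at least 2-fold higher: it read 1992 in P60 lens and 889 in P7 lens, 2.24-fold higher. Its second measured probe set gave a log2 ratio of 1.01, so both probe sets of Psme3 passed 2-fold. Psme1, encoding PA28α of the cytoplasmic activator, read 4463 in P60 lens and 3232 in P7 lens (log2 ratio 0.47). Psme2, its partner, is read by a probe set shared with a related gene and has no value here. Psmf1, encoding PI31, which inhibits the core in vitro, had a log2 ratio of 0.42 (948 in P60 lens and 706 in P7 lens), but its 4 measured probe sets ran from -0.18 to 0.99.

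All 7 assembly factor genes had log2 ratios below 0, with a median of -0.66, and none reached 2-fold. Of the chaperones of the α ring, Psmg2 (PAC2) read 2085 in P60 lens and 3292 in P7 lens, and its 2 measured probe sets had -0.66 and -0.92. Its partner Psmg1 (PAC1) read 2751 in P60 lens and 3189 in P7 lens (log2 ratio -0.21). Psmg3 (PAC3) and Psmg4 (PAC4) were dimmer. Psmg3 read 630.4 in P60 lens and 804 in P7 lens (log2 ratio -0.35), and Psmg4 518 in P60 lens and 817 in P7 lens (log2 ratio -0.66). Of the chaperones of the base, Psmd9 (p27) read 648 in P60 lens and 1274 in P7 lens (log2 ratio -0.98), with its dimmer probe set at -0.01. Psmd10 (gankyrin) read 1069.8 in P60 lens and 2028 in P7 lens (log2 ratio -0.92), and Psmd5 (S5b) 856 in P60 lens and 952 in P7 lens (log2 ratio -0.15). Of the genes that match the symbol rule only, Psmc3ip read 192 in P60 lens and 307 in P7 lens (log2 ratio -0.68), and Psme3ip1 1296 in P60 lens and 1642 in P7 lens (log2 ratio -0.34).

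Among the 21 members with 2 or more measured probe sets, 14 had every probe set below 0, 2 had every one above 0 (Psmd4 and Psme3), and 5 had probe sets on both sides. These 5 were Psma3, Psmb1, Psmc2, Psmd11 and Psmf1. Counted by probe set instead of by gene, 64 of 77 measured probe sets of members lay below 0 (83.1%), beside 52.4% of all 22462 measured probe sets with 1 gene symbol. Of the 77, 15 (19.5%) were at least 2-fold lower and 2 (2.60%) at least 2-fold higher in P60 lens, beside 10.6% and 9.89% of the 22462.

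Genes that work with the proteasome under other symbols were mixed, with 6 of 16 measured below 0 and a median log2 ratio of 0.06. Pomp, the maturation factor of the β rings, was 2.37-fold lower, with 5493 in P60 lens and 13015 in P7 lens. Sem1, the smallest lid subunit, read 6531 in P60 lens and 10864 in P7 lens (log2 ratio -0.73). Both therefore lay on the side of the core and lid genes. The lowest of the list was Zfand5, a ubiquitin-binding protein that stimulates the proteasome, 2.62-fold lower with 11401 in P60 lens and 29881 in P7 lens. The highest was Rad23b, a shuttle that carries ubiquitinated proteins to the proteasome, 2.11-fold higher with 7570 in P60 lens and 3588 in P7 lens (3 probe sets from 0.46 to 1.59). The deubiquitinase gene Usp14 (log2 ratio 0.67) had probe sets from -1.39 to 0.67, so its direction is not settled. Uchl5, Ecpas, Ubqln1, Ubqln4, Zfand2a, Ube3c, Ublcp1 and Txnl1 also had probe sets on both sides of 0. The count of 6 of 16 and the median of this list therefore depend on the probe set. Of the ubiquitin and ubiquitin-activating genes only Uba6 had a probe set of its own, at 1172 in P60 lens and 644 in P7 lens, and its 4 measured probe sets ran from -0.09 to 1.45.

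Known regulators of proteasome genes lay on both sides of 0. Of 11 measured, none was 2-fold apart, 4 lay below 0, and the median log2 ratio was 0.27. Nfe2l1, encoding NRF1, read 3629 in P60 lens and 2440 in P7 lens (log2 ratio 0.57), and Nfe2l2, encoding NRF2, 1492 in P60 lens and 1019 in P7 lens (log2 ratio 0.55). The highest was Maff (0.73) and the lowest Mafg (-0.90), both small MAF partners of these factors. Their other target genes were split: Slc7a11, a cystine transporter, was 2.63-fold higher (1101 in P60 lens and 418 in P7 lens) and Hmox1, haem oxygenase, 2.42-fold lower (10378 in P60 lens and 25118 in P7 lens). The median over the 8 measured genes of that list was 0.36. Vcp, the ATPase that extracts proteins for the proteasome, had a log2 ratio of 0.02, while its other measured probe set stood at -0.89. The 8 genes of Vcp and its cofactors had a median of -0.13 and ran from -0.65 (Faf1) to 0.41 (Ubxn7).

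Immunoproteasome subunits, which replace the catalytic β subunits in immune cells and after interferon, were dim in the lens. Psmb10 read 235 in P60 lens and 491 in P7 lens, Psmb9 79.2 in P60 lens and 126 in P7 lens. Psmb8, with 57.1 in P60 lens and 10.7 in P7 lens, stayed under the floor at both ages. No catalytic subunit of either kind therefore had a higher signal above the floor in P60 lens.

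Other large cytosolic complexes gave a scale for these values. The CCT chaperonin, which folds actin and tubulin, had all 8 genes below 0 and a median log2 ratio of -0.53, with 1 gene, Cct8, at least 2-fold lower (2648 in P60 lens and 5641 in P7 lens) and Cct2 highest at -0.06. The COP9 signalosome, built on the same plan as the proteasome lid, had 8 of 10 below 0 and a median of -0.41. Its enzyme gene Cops5 was 3.07-fold lower, at 4575 in P60 lens and 14066 in P7 lens, and Cops4 was highest with a log2 ratio of 0.25. The translation factor eIF3, also related to the lid in plan, had 6 of 11 below 0 and a median of -0.07. On the chosen probe sets none was at least 2-fold apart, with a range from -0.91 (Eif3i) to 0.89 (Eif3b). Probe sets on both sides of 0 were found for Eif3a (-1.72 to 0.12), Eif3c (-1.47 to 0.09), Eif3l (-0.24 to 0.64) and Eif3m (-0.21 to 0.49). Among the CCT genes this held for Cct4 (-0.36 to 0.50). The lowest probe sets of Cct3 and Cops9 stood at -2.08 and -1.79. Low ratios were thus also seen in complexes that are not the proteasome.

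**Figure D4:**
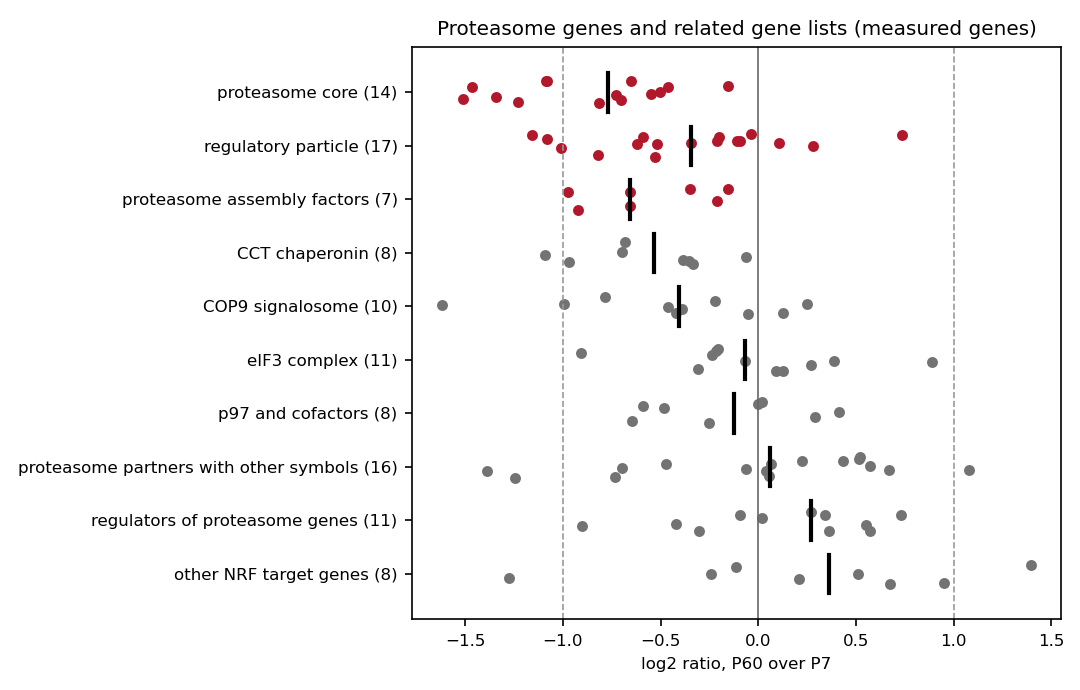
Log2 ratio of P60 over P7 of each measured gene (points) and the median (black bars) for proteasome groups (red) and related lists (grey), with the number of measured genes in brackets and dashed lines at 2-fold. The medians run from -0.77 for the proteasome core to 0.36 for other NRF target genes.

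Both arrays carried strong lens markers. The 7 lens markers with a probe set of their own, among them Cryaa and Bfsp1, read 43365 or more in P60 lens and 45140.1 or more in P7 lens, and their log2 ratios lay between -0.12 (Mip) and 0.20 (Crybb2). Markers of dividing cells were lower in P60 lens in 9 of 9 measured genes, with a summed intensity of 1860.5 in P60 lens and 5512 in P7 lens. At least 2-fold lower were 7 of the 9, from Ccnb2, the lowest, through Ube2c, Mki67, Cdk1, Top2a and Cenpf to Aurka, and Plk1 was nearest to 0. Ccnb2 was under the floor in P60 lens, and other probe sets of Top2a and Cenpf came as near to 0 as -0.14 and -0.08. Vascular endothelial markers were lower in 8 of 8, with sums of 979 in P60 lens and 4443 in P7 lens. At least 2-fold lower were Cldn5, the lowest, Esam, Tek, Emcn and Cdh5, all under the floor in P60 lens, and Eng and Kdr, while Egfl7 was nearest to 0. Pigment cell markers were lower in 5 of 5, with sums of 923 in P60 lens and 1961 in P7 lens. Tyrp1 and Pmel were at least 2-fold lower while Mlana was nearest to 0, and Tyr and Mlana were under the floor in P60 lens. Of 4 photoreceptor markers, with sums of 1634 in P60 lens and 2639 in P7 lens, Pdc and Nrl were at least 2-fold lower. Gnat1, under the floor in P7 lens, was at least 2-fold higher. Leukocyte markers had sums of 1191 in P60 lens and 1171 in P7 lens, with Cd74 at least 2-fold higher. Fcer1g, under the floor in P60 lens, was at least 2-fold lower. Erythroid markers were measured for Hba-a2 and Hbb-b2 alone, both under the floor in P60 lens. Of the corneal markers Krt12 was under the floor at both ages while Krt5 and Krt14, the latter under the floor in P7 lens, were within 2-fold. The 5′ probe set of beta-actin read 0.606 of its 3′ probe set in P60 lens and 0.785 in P7 lens, and for Gapdh these ratios were 1.29 in P60 lens and 1.39 in P7 lens. For the array's control transcript dap the ratios were 0.0262 in P60 lens and 0.0995 in P7 lens, but the signals behind the dap ratios were not set against the floor. The part of these differences in the lower signals of the proteasome genes was not tested.

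Apart from the base genes that are not ATPases, the median of each subcomplex was recomputed under 12 other ways of processing, and each kept its sign. The lid median shrank from -0.36 to -0.17 on the dimmest measured probe sets, beside -0.06 over all genes. On probe sets without a letter suffix it was -0.13, beside 0.01 over all genes. The lower lid median therefore depends on the probe set. Of the 10 members at least 2-fold lower, Psma7, Psmb3, Psmc6 and Psmd13 did not reach 2-fold either on the dimmest measured probe set or on probe sets without a letter suffix, and Psmd6 and Psme4 did not on the dimmest. Psmc4 reached it in both settings and Psma1 on the dimmest, while Psma5 and Psmb5 have no measured probe set without a suffix. Psmb2 and Psmb6 stayed at least 2-fold lower, but each has only 1 probe set, without a suffix, so these settings could not change them.

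**Figure D5:**
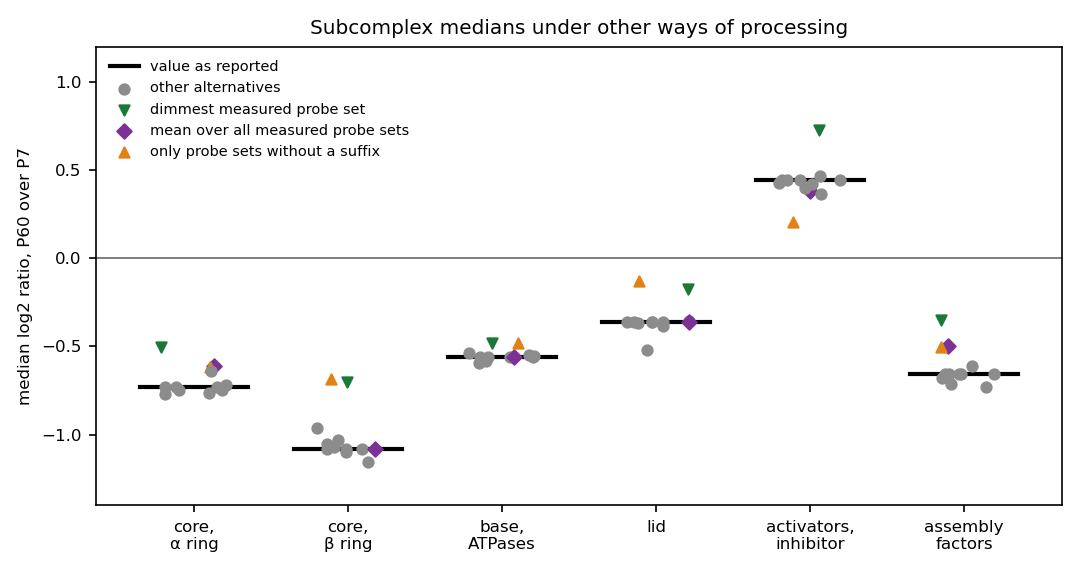
Median log2 ratio of P60 over P7 for each subcomplex as reported (black bars) and under the alternatives (points). Core, ATPase, lid and assembly medians stay below 0 and the median of activators and inhibitor stays above 0, with the widest shifts for the dimmest probe sets and for probe sets without a suffix.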

How the data were processed

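RNA from 1 pool of lenses per age was hybridised to 1 mouse Affymetrix array. The authors deposited linear signal intensities for 45101 probe sets, and the submitters' processing notes name MAS5. After trimming 2% of probe sets at each end the mean intensity was 500.0 on both arrays, so the authors' values share a common scale. Software version and detection calls are not stated in those notes.

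A platform annotation gave 1 symbol to 34958 probe sets, of which 34754 matched a current mouse gene. Each gene was read on its brightest probe set, by the mean log2 intensity of both ages. The floor was the median over both arrays together (103.9). Lower values were set to the floor, and the log2 ratio of P60 over P7 was computed. Calls mean a difference of at least 2-fold, since 1 array per age allows no p-value. Subcomplexes were assigned from textbook knowledge. All members were named, and of every related list the highest, the lowest and the 2-fold genes. Members and lists were chosen with earlier results of these data known. Promoter letters were searched in RefSeq windows of 300 bases. The calculation was tested on simulated data with planted shifts well past 2-fold in genes well above the floor, so that test does not cover ratios near the limit. Python 3.11.15, pandas 2.3.3 and statsmodels 0.14.6 were used. Alternatives changed the floor, the probe set of a gene, the scaling and the filter. The number of arrays limits the precision.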

Additional observations from a re-analysis of the deposited data

How the results depend on the processing

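Of 12 alternatives, 10 were planned and 2 were chosen after seeing the data: without the genes that are no proteasome proteins, and without members whose probe sets differ in sign. A median counted as moved when it shifted by more than the SD between probe sets divided by the square root of the number of genes. This limit is a convention only, since the genes share the same pools and arrays. Under it, the shift of the lid median from -0.36 to -0.13 did not count as moved. Nor did that of the activators and inhibitor from 0.44 to 0.73. On the dimmest measured probe set, 6 of 44 members were at least 2-fold lower (13.6%, beside 10.4% of all genes), with medians of -0.39 over the members, -0.50 for core α, -0.70 for core β and -0.35 for assembly factors. On probe sets without a suffix, 5 of 38 were lower (13.2%, beside 9.44%), with medians of -0.47 over the members and -0.69 for core β. These settings take other or fewer probe sets. Without a floor, 11 of 46 were lower (23.9%), beside 20.3% of all genes. The median over all members ranged from -0.62 to -0.39, and exactly 1 member was at least 2-fold higher in each of the 12. Of 515 values of single members, 501 moved by less than 0.58 and none past 2-fold changed sign. Many of these values could not move, because 2 alternatives only leave out members and dropping the floor changes none of the chosen ratios. A change of probe set can move only the 21 members with 2 or more measured probe sets. Scaling moved the median of all genes by less than 0.1. No paired analysis was possible because each age has 1 array, and leaving out a replicate was not possible for the same reason.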
